A study of Mus musculus with 24 samples.

Results

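The genes described here are 8 genes used as marks of mast cells, Cpa3, Cma1, Mcpt4, Tpsb2, Kit, Ms4a2, Fcer1a and Hdc, in mouse hearts during experimental autoimmune myocarditis (EAM). They were given by symbol, and each symbol matched 1 Ensembl identifier among the 41388 genes of the count table. The comparison of EAM with control hearts at successive days addresses which genes differ in the inflamed heart, and when. All mice were wild type Balb/c males (BALB/cAnNCrl in the methods of the study), 8 to 10 weeks old at immunization. EAM mice received 200 µl of emulsion with 100 µg of a cardiac myosin heavy chain peptide on day 0 and again on day 7, in supplemented complete Freund's adjuvant (SCFA), with pertussis toxin (PTX) on day 0. Control mice received SCFA with PBS in place of the peptide on the same days and the same PTX, so they are adjuvant controls and not naive mice. Hearts were taken at day 10, 15 or 21 (D10, D15, D21), with 4 EAM and 4 control hearts at each time and 24 in all. RNA came from a frozen portion of each heart, and the samples were chosen as far as possible to hold inflammation, so the EAM groups are not a random draw of immunized mice.

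Libraries held 15814863 to 24980864 assigned reads (median 19469782.5) and 19535 to 21897 genes with a read. In 1 library 3 reads correspond to 0.120 to 0.190 CPM (counts scaled to a library of 1e6 reads) before TMM scaling, below which a value is little more than counting error. All levels given here are CPM after TMM scaling over the 24 libraries, which corrects library totals for differences in RNA composition. The 4 D21 EAM libraries carry another library code in the labels than the other 20, so at D21 the code and EAM cannot be told apart. D10 EAM replicate 1 stood apart from the other D10 EAM hearts by its leukocyte genes: its 8 neutrophil markers summed to 814 CPM and those of the other 3 hearts to 167 to 331 CPM.

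Mast cells arise from bone marrow progenitors, mature in tissues under Kit signalling and store histamine and proteases bound to serglycin in their granules. Crosslinking of IgE on the high-affinity receptor releases the granules within minutes. In the heart they are sparse cells that lie around vessels, in the epicardium and in the atrial wall. Cpa3 encodes carboxypeptidase A3, Cma1 and Mcpt4 the chymases mMCP-5 and mMCP-4, and Tpsb2 the tryptase mMCP-6, all proteases of connective tissue mast cell granules. Hdc encodes histidine decarboxylase, which makes histamine and is also used by basophils, neutrophils and other myeloid cells. Kit is the receptor for stem cell factor, also present on progenitors and other cells. Fcer1a and Ms4a2 encode the alpha and beta chains of the IgE receptor, shared by mast cells and basophils.

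In the GRCm38 annotation all 8 are protein coding. Cma1 (ENSMUSG00000022225) and Mcpt4 (ENSMUSG00000061068) lie in the same protease cluster on chromosome 14, Cma1 at chr14:55941451-55944675 and Mcpt4 at chr14:56059629-56062313, both on the minus strand. Cpa3 (ENSMUSG00000001865) lies at chr3:20215620-20242181 on the minus strand, Tpsb2 (ENSMUSG00000033825) at chr17:25366305-25369098 on the plus strand, and Hdc (ENSMUSG00000027360) at chr2:126593667-126619299 on the minus strand. Kit (ENSMUSG00000005672) lies at chr5:75574916-75656722 on the plus strand, Ms4a2 (ENSMUSG00000024680) at chr19:11615523-11623719 on the minus strand, and Fcer1a (ENSMUSG00000005339) at chr1:173221284-173227214 on the minus strand. Runs of 75 bases that also occur in another gene's transcript made up 2.51% of the Mcpt4 transcript (shared with Cma2), 1.67% of Cma1 (Gm48934), 1.64% of Ms4a2 (Ms4a4b) and 0% of the other 5, so few reads could be split with a near-identical copy.

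RefSeq promoter windows were found for 7 of the 8 genes, Tpsb2 being the other. The 250 bases before the RefSeq start are shown for the 3 proteases with a window and for Hdc, because the results turn on how the levels of these genes differ. Capitals mark matches on either strand to AGATAA or AGATAG, or to the same words begun with T, which are TGATAA and TGATAG. These are bound by GATA factors, of which GATA2 is needed for mast cells. The windows, in GRCm38.p6 and written 5′ to 3′ along the gene, are all from the minus strand: chr3:20242182-20242431 for Cpa3, chr14:55944676-55944925 for Cma1, chr14:56062311-56062560 for Mcpt4 and chr2:126618679-126618928 for Hdc.
Cpa3: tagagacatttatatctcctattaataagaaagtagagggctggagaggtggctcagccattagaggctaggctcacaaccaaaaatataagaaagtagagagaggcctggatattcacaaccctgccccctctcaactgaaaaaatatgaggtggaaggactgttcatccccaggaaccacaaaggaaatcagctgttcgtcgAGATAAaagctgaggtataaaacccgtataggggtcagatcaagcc
Cma1: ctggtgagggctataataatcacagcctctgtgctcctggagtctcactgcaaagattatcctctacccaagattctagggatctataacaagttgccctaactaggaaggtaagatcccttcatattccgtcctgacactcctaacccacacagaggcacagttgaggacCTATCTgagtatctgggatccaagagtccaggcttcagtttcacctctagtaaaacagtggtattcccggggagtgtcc
Mcpt4: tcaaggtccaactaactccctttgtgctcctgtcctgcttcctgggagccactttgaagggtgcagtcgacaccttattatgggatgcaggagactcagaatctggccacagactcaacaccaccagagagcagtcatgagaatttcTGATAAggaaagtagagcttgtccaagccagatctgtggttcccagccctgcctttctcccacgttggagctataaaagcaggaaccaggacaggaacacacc
Hdc: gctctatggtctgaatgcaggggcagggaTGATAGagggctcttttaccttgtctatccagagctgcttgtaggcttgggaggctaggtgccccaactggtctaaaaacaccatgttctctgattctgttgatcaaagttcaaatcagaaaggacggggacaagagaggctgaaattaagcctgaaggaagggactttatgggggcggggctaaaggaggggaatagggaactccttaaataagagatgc
Each of these 4 windows held 1 match. Over the 7 genes with a window, 6 held at least 1 match, and Kit held none, while 26.5% of all 32851 mouse windows of this length did. Ms4a2 held 3 matches and Fcer1a held 1. The E-box letters CATGTG or CACGTG, bound by MITF, were found in 1 of the 7 windows (Fcer1a) and in 17.6% of all windows. The letters GAGGAA, the core bound by PU.1, were found in 2 of the 7 (Kit and Fcer1a) and in 23.3% of all. The 3 motifs do not overlap one another in these windows. A match describes the letters only.

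The 4 proteases were detected in every heart at a low level. In the 12 control hearts Cpa3 was at 1.42 ± 0.301 CPM, Cma1 at 1.18 ± 0.340 CPM, Mcpt4 at 1.83 ± 0.486 CPM and Tpsb2 at 1.37 ± 0.281 CPM (mean ± SD, n = 12). Over all 24 hearts each rested on few reads, 17 to 61 per heart for Cpa3, 12 to 47 for Cma1, 8 to 56 for Mcpt4 and 14 to 59 for Tpsb2. Within groups the variance of scaled counts was 1.02 times the mean for Mcpt4, 1.46 times for Cpa3, 1.51 times for Tpsb2 and 2.04 times for Cma1, where counting error alone gives 1. Hdc and Kit were better covered, at 82 to 1988 and 172 to 586 reads per heart, and the ratio was 7.66 for Kit and 176 for Hdc, so the spread of Hdc was far above counting error. Ms4a2 and Fcer1a had 0 to 7 and 0 to 8 reads per heart and never reached 10, so neither entered a test across genes.

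Per kilobase of exon, the control levels ordered as Kit at 1.69 ± 0.341, Mcpt4 at 1.65 ± 0.439, Cma1 at 1.08 ± 0.312, Hdc at 0.989 ± 0.269, Cpa3 at 0.934 ± 0.198, Tpsb2 at 0.859 ± 0.176, Fcer1a at 0.0756 ± 0.0584 and Ms4a2 at 0.0445 ± 0.0289 CPM per kb (mean ± SD, n = 12). Kit and Mcpt4 differed by less than their SD, as did each neighbour from Cma1 to Tpsb2. Fcer1a and Ms4a2 differed by less than the SD of Fcer1a and by slightly more than that of Ms4a2. The steps from Mcpt4 to Cma1 and from Tpsb2 to Fcer1a were larger than the SD of either gene.

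**Figure D1:**
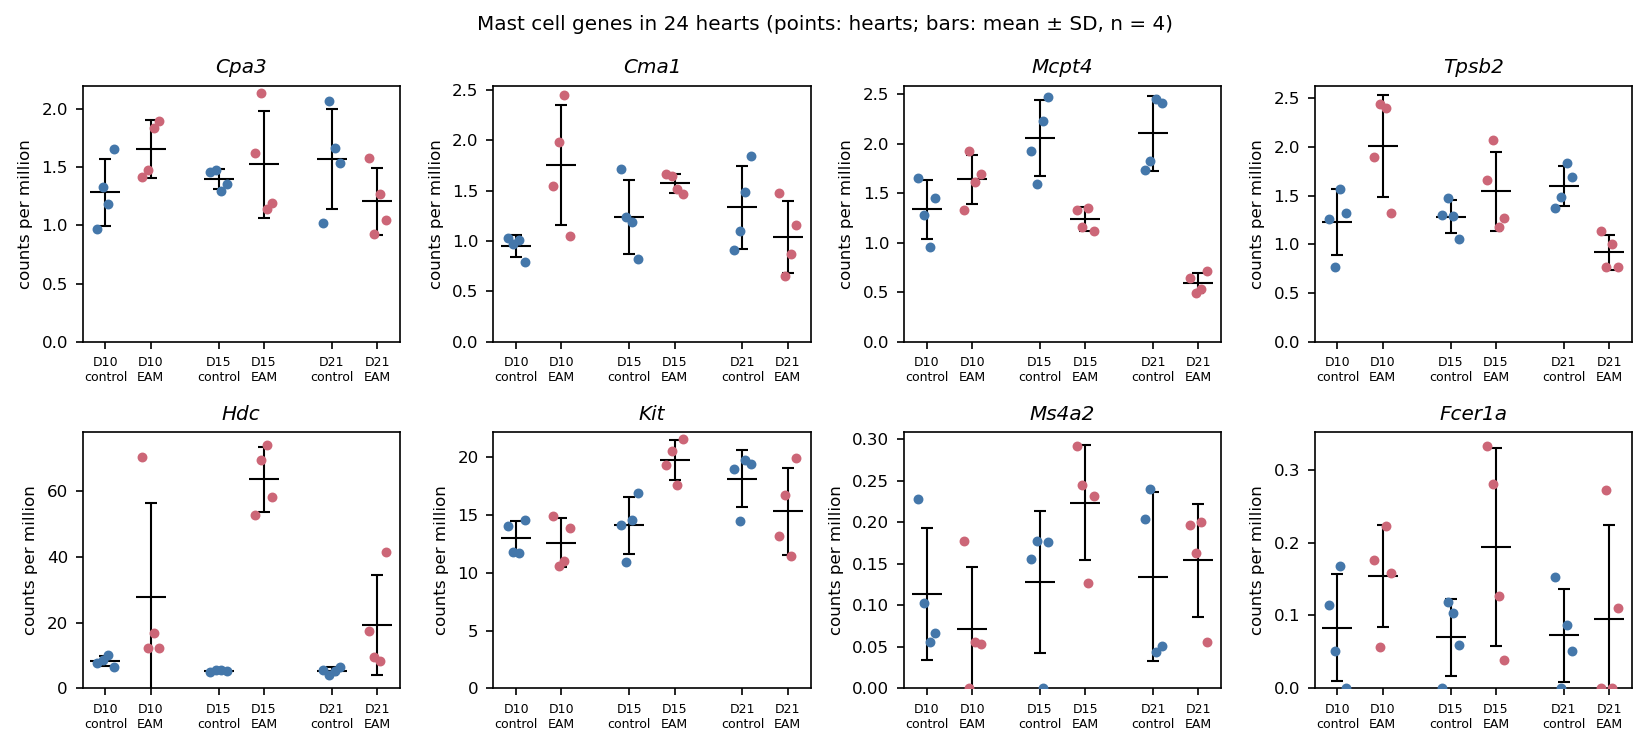
CPM (y axis, linear, from 0) of the 8 mast cell genes in the 6 groups (x axis), 1 point per heart, with mean ± SD over n = 4 hearts in black (bars end at the axis where they reach 0); control hearts are blue and EAM hearts red. Mcpt4 in the 4 D21 EAM hearts lies between 0.490 and 0.717 CPM, below all 4 D21 control hearts, and Hdc in the 4 D15 EAM hearts lies between 52.8 and 74.2 CPM against 5.0002 to 5.70 CPM in control.

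EAM hearts were set against the control hearts of their day over all genes that reached 10 reads in 4 or more of the 8 hearts. The test was edgeR's quasi-likelihood test, and p-values were adjusted by the Benjamini-Hochberg method. A gene was called higher (induced) or lower (repressed) at an adjusted p under 0.01 and at least a 2-fold change. The 6 testable genes did not move as 1 group. Hdc was induced at D15, Mcpt4 was repressed at D21, and Cpa3, Cma1, Tpsb2 and Kit were called at no day. RNA came from tissue, so fewer cells of a type and less RNA per cell cannot be told apart in any of these values. Where groups are said not to overlap, the share of all genes that also did not was not counted. Such statements therefore describe the hearts only and set no gene apart from the rest.

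At D10, 0 of the 6 genes were called, as were 0 of all 15029 genes (0% higher and 0% lower), with a smallest adjusted p over all genes of 0.254 and 2292 genes at an unadjusted p under 0.05. The likelihood ratio test of edgeR, DESeq2 and limma-voom also called 0 of the 6, though DESeq2 gave Hdc no adjusted p. Over all genes they called 45, 48 and 0 higher and 2, 4 and 0 lower. Unadjusted p-values under 0.05 were given by 3 of the 6, Cma1, Tpsb2 and Hdc. At D15, 1 of the 6 was called higher and 0 lower, against 18.1% of all 15693 genes higher and 12.9% lower. At D21, 0 were called higher and 1 lower, against 4.13% of 15266 genes higher and 1.16% lower. Over the 6 genes the median log2 fold change for D10, D15 and D21 was 0.53, 0.34 and -0.34, beside -0.01, 0.02 and -0.01 over all genes tested.

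Mcpt4, whose product is the chymase with the activity nearest to that of human chymase, had the largest fall. At D21 the 4 control hearts were at 1.73, 1.82, 2.45 and 2.41 CPM (34, 38, 56 and 47 reads) and the 4 EAM hearts at 0.641, 0.490, 0.534 and 0.717 CPM (13, 9, 8 and 13 reads). The groups did not overlap, and each EAM heart was below every other heart of the series. The log2 fold change was -1.78 ± 0.23 (SE, 95% interval -2.30 to -1.26), or 0.291 of the control level, with an adjusted p of 0.00473 in edgeR's quasi-likelihood test. Adjusted p-values rose to 0.0106 to 0.0243, past the limit, when any 1 of the 4 D21 control hearts or D21 EAM replicate 1 or 2 was left out, while the log2 fold change stayed between -1.89 and -1.69.

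At D15 Mcpt4 was at 1.93, 1.59, 2.23 and 2.47 CPM in control and at 1.33, 1.16, 1.35 and 1.12 CPM in EAM hearts. All 4 EAM hearts were below all 4 control hearts, but the log2 fold change of -0.69 ± 0.18 (adjusted p = 0.00635, edgeR's quasi-likelihood test) was under 2-fold and was not called. With no fold limit, 31.1% of all genes were called lower at D15, so such a difference was common that day. At D10 the EAM hearts at 1.33 to 1.93 CPM overlapped with the controls at 0.955 to 1.66 CPM, with a log2 fold change of 0.28 ± 0.22 (adjusted p = 0.488), which turned to -0.17 when all 12 control hearts served as controls. The control hearts had means of 1.34 ± 0.297 CPM on D10, 2.06 ± 0.380 CPM on D15 and 2.10 ± 0.379 CPM on D21 (SD, n = 4 each), and the differences between days in control hearts were not called.

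The EAM effect on Mcpt4 differed between days. In 1 fit of all 24 hearts the effect at D15 minus that at D10 was -1.02 ± 0.27 on the log2 scale (adjusted p = 0.00547, edgeR's quasi-likelihood test), and Mcpt4 was the 1 gene of the 6 called lower, with 0 called higher, against 7.35% of 16318 genes lower and 5.38% higher. The effect at D21 minus that at D15 was -1.08 ± 0.28 (adjusted p = 0.00809), again 1 of 6 lower and 0 higher, against 0.919% of genes lower and 2.74% higher. Both calls lie near their limits, and the second involves the D21 EAM libraries with another code. Of the 5 other settings tried, 1 kept the first call (the likelihood ratio test), and 3 kept the second (that test, RLE scaling and scaling to total counts). The second was lost with no filter on low counts and with the replicate number, which pairs the D21 hearts, as a block (-1.08). Of the 16 fits that leave out 1 heart, 10 lost the first and 12 the second, with changes of -1.14 to -0.89 and of -1.18 to -0.97.

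Tpsb2 had the next lowest value at D21. Control hearts were at 1.37, 1.49, 1.84 and 1.69 CPM and EAM hearts at 1.13, 0.763, 1.002 and 0.772 CPM, with no overlap. The log2 fold change was -0.77 ± 0.21 (95% interval -1.26 to -0.29), and the adjusted p of 0.0256 in edgeR's quasi-likelihood test missed the limit. At D10 the groups overlapped, with EAM hearts at 1.90, 2.44, 2.39 and 1.32 CPM and controls at 1.26, 0.768, 1.57 and 1.32 CPM, a log2 fold change of 0.70 ± 0.28 that was not called (adjusted p = 0.328). At D15 the values were 1.18 to 2.07 CPM in EAM and 1.06 to 1.48 CPM in control hearts and overlapped.

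Cma1 and Cpa3, the chymase and the carboxypeptidase that are stored together, had smaller differences. Cma1 at D10 was at 1.55, 1.98, 2.45 and 1.06 CPM in EAM hearts and at 1.03, 0.973, 1.01 and 0.793 CPM in control hearts. Each EAM heart was above each control heart, by little in replicate 4, with a log2 fold change of 0.86 ± 0.27 (95% interval 0.25 to 1.47, adjusted p = 0.328 in edgeR's quasi-likelihood test). At D15 it was 0.37 ± 0.22 and at D21 -0.33 ± 0.33, and the groups overlapped at both days. Cpa3 gave 0.36 ± 0.22 at D10, 0.17 ± 0.23 at D15 and -0.36 ± 0.27 at D21, with 95% intervals that hold 0 at each day, and without D15 EAM replicate 2, the heart with the most Cpa3 at 2.14 CPM, its D15 value turned to -0.04.

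**Figure D2:**
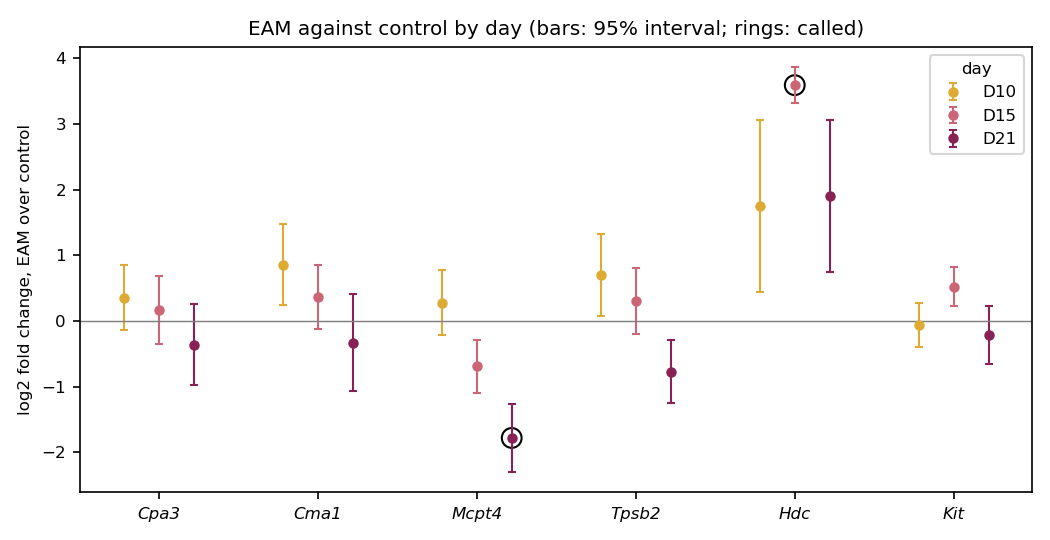
Log2 fold change of EAM over control hearts (y axis) for the 6 mast cell genes with enough reads (x axis) at D10, D15 and D21, n = 4 hearts per group, with the 95% interval from the edgeR fit; rings mark the 2 called values. Hdc at D15 is at 3.59 and Mcpt4 at D21 is at -1.78, and the Mcpt4 points step down from D10 to D21.

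Added together, the 4 proteases were at 4.35 to 5.22 CPM in D10 control hearts and at 5.96 to 8.30 CPM in D10 EAM hearts, with no overlap. At D15 they were at 5.71 to 6.41 CPM in control and 5.05 to 7.00 CPM in EAM hearts. At D21 they were at 5.03 to 7.48 CPM in control and 2.83 to 4.83 CPM in EAM hearts, again with no overlap and in the other direction. The EAM sums were thus above their own controls at D10, overlapped with them at D15 and were below them at D21. Neither the sums nor their change between days was tested. The mean control sum itself rose from D10 to D15 and again to D21, so part of the change lies in the controls. Among the 4 proteases the only call against control was Mcpt4 at D21.

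Genes that mark parts of the heart differed between the same groups. The 5 atrial markers (Myl7, Sln, Nppa, Myl4 and Bmp10) summed to 209 to 507 CPM in D10 control and 583 to 2047 CPM in D10 EAM hearts, with 0 of 5 called and a median log2 fold change of 2.19. At D21 they summed to 1770 to 2789 CPM in control and 55.8 to 180 CPM in EAM hearts. There 5 of 5 were called lower, beside 1.16% of all genes, with a median log2 fold change of -7.41. Over all genes the 177 called lower at D21 went to 7, 7, 11 and 31 without each control heart. Without each EAM heart they went to 14, 56, 530 and 146. None of the 5 was at 0 in any group. The 4 epicardial markers (Msln, Upk3b, Wt1 and Upk1b) were at 8.39 to 12.4 CPM in D10 control and 20.4 to 42.2 CPM in D10 EAM hearts (0 of 4 called), and at 22.7 to 28.1 and 14.3 to 56.5 CPM at D21 (0 of 4 called). The 5 adipocyte markers summed to 9.57 to 26.2 CPM in D21 control and 0.110 to 2.94 CPM in D21 EAM hearts, with Plin1 called lower among 4 tested and Lep at 0 in the EAM hearts. The part of these tissues in the protease values was not tested. In D15 control replicate 4, where the atrial markers summed to 240 CPM against 1869 to 2487 CPM in the other 3 D15 control hearts, the proteases summed to 5.71 CPM, the lowest of the 4, and Mcpt4 was at 2.47 CPM, the highest of all 24 hearts. Both ranks are narrow, since D15 control replicate 2 summed to 5.79 CPM and Mcpt4 in D21 control replicate 3 was at 2.45 CPM. Over the 24 hearts, Pearson's r with the mean log2(CPM + 1) of the 4 proteases was 0.70 for Myl7, 0.72 for Sln and 0.59 for Nppa with the group means kept, and -0.20, -0.21 and 0.03 once they were taken off, given as a description.

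**Figure D3:**
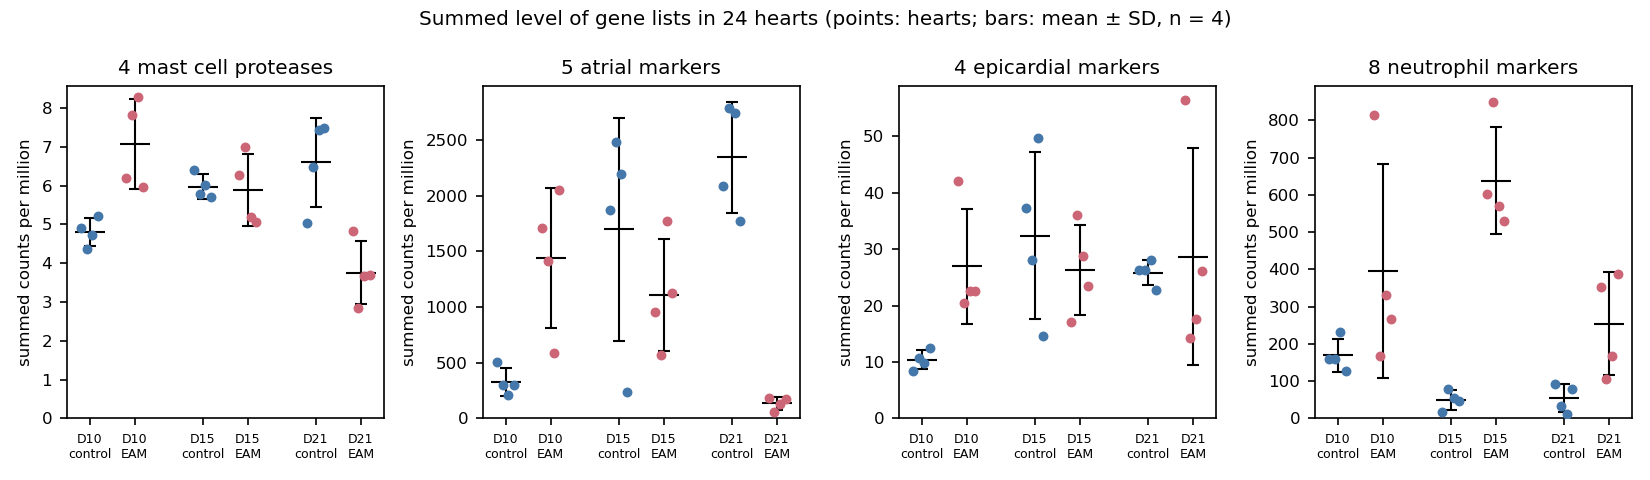
Summed CPM (y axis, linear, from 0) of the 4 mast cell proteases, 5 atrial, 4 epicardial and 8 neutrophil markers in the 6 groups (x axis), 1 point per heart and mean ± SD over n = 4. The protease and atrial sums are both higher in D10 EAM than in D10 control hearts and both lower in D21 EAM than in D21 control hearts.

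The proteases were also set against one another within each heart, which does not depend on the library total. These ratios were chosen after their values were seen. The reads of Mcpt4 over those of Cpa3, Cma1 and Tpsb2 were 0.430, 0.380, 0.589 and 0.764 in the D15 control hearts and 0.269, 0.198, 0.352 and 0.284 in the D15 EAM hearts. At D21 they were 0.523, 0.392, 0.491 and 0.475 in control and 0.153, 0.209, 0.170 and 0.241 in EAM hearts. The groups did not overlap at either day, and Mcpt4 took a smaller share of the protease reads in every EAM heart.

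The mean ratio was 0.518 of that in control at D15 and 0.407 at D21 (exact two-sided permutation test of the log2 ratio, p = 0.0286 at both days, the smallest that 4 hearts against 4 allow, adjusted p = 0.0686 over 12 tests). At D10 it was 0.8002 of control and the groups overlapped (exact permutation p = 0.286, adjusted p = 0.343). The labels do not say that replicate numbers pair hearts. If the D21 numbers do, an exact test within 4 pairs can go no lower than p = 0.125, the value found here. Leaving out 1 heart in turn kept the log2 difference between -1.10 and -0.76 at D15 and between -1.41 and -1.19 at D21.

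Tpsab1, the gene of the tryptase mMCP-7 beside Tpsb2 and not one of the 8, was compared in the same way. Its reads over those of Tpsb2 were 1.45 times the control at D15 (exact permutation p = 0.0571, adjusted p = 0.0980) and 1.14 and 1.22 times at D10 and D21. Its own log2 fold changes of 0.92 (D10), 0.88 (D15) and -0.44 (D21) were not called (adjusted p = 0.328, 0.0153 and 0.206 in edgeR's quasi-likelihood test).

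**Figure D4:**
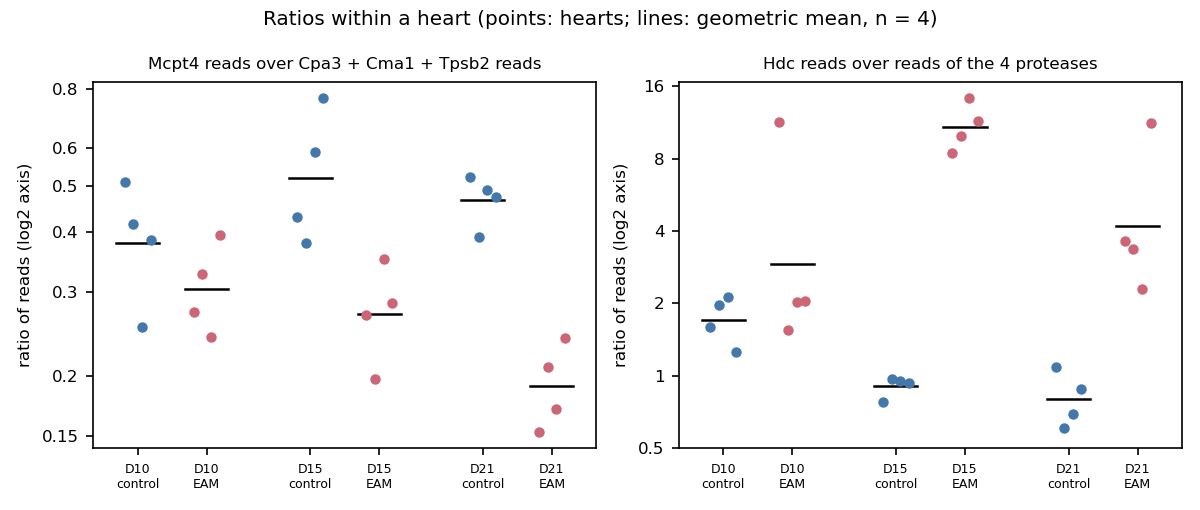
Ratios of reads within each heart on log2 axes, Mcpt4 over the sum of Cpa3, Cma1 and Tpsb2 on the left and Hdc over the 4 proteases on the right, in the 6 groups (x axis), 1 point per heart with the geometric mean of n = 4 as a line. Mcpt4 takes 0.153 to 0.241 in D21 EAM and 0.392 to 0.523 in D21 control hearts, while Hdc takes 8.41 to 14.3 in D15 EAM and 0.780 to 0.969 in D15 control hearts.

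Hdc, the histamine-forming enzyme, was the 1 gene of the 8 called higher. At D15 control hearts were at 5.0002, 5.61, 5.70 and 5.36 CPM and EAM hearts at 52.8, 69.6, 74.2 and 58.2 CPM. The lowest EAM heart was far above the highest control heart. The log2 fold change was 3.59 ± 0.12 (SE), a 12.1-fold increase, with an adjusted p of 2.5e-08 in edgeR's quasi-likelihood test, and 3.52 to 3.67 when 1 heart was left out. All 11 other settings tried kept this call.

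At D21 Hdc was spread over a wide range. Control hearts were at 5.49, 3.94, 5.16 and 6.60 CPM and EAM hearts at 17.6, 9.59, 8.42 and 41.5 CPM, with no overlap. The log2 fold change was 1.90 ± 0.51 (95% interval 0.74 to 3.06), and the adjusted p of 0.0245 missed the limit in edgeR's quasi-likelihood test. Without D21 EAM replicate 3, the heart with the lowest value, it was 2.13 and was called (adjusted p = 0.00613), and DESeq2 and the likelihood ratio test called it with all 8 hearts. Without D21 EAM replicate 4, the heart with the highest value, it was 1.19 and not called (adjusted p = 0.0233).

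At D10 Hdc was at 7.82, 8.55, 10.1 and 6.54 CPM in control hearts and at 70.5, 12.2, 16.9 and 12.2 CPM in EAM hearts. All 4 EAM hearts were above all 4 controls, and replicate 1 alone reached the D15 level. The log2 fold change was 1.75 ± 0.58 with replicate 1 and 0.72 without it, called in neither (adjusted p = 0.328 with it in edgeR's quasi-likelihood test). Against all 12 control hearts it was 2.18 and called (adjusted p = 0.00109), where 4.06% of all genes were called higher. The change of the EAM effect from D10 to D15 was 1.79 ± 0.69 and not called with all hearts (adjusted p = 0.0402), and 2.82 and called without D10 EAM replicate 1 (adjusted p = 0.000241).

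Neutrophil markers were read beside Hdc in each EAM heart. In the D10 EAM hearts, replicates 1 to 4, the 8 neutrophil markers summed to 814, 167, 331 and 267 CPM beside Hdc at 70.5, 12.2, 16.9 and 12.2 CPM. In the D21 EAM hearts they summed to 353, 105, 168 and 388 CPM beside Hdc at 17.6, 9.59, 8.42 and 41.5 CPM. In the D15 EAM hearts they summed to 601, 850, 570 and 531 CPM beside Hdc at 52.8, 69.6, 74.2 and 58.2 CPM. At D15, 8 of 8 were called higher, beside 18.1% of all genes. The calls were 0 of 7 tested at D10 and 1 of 7 at D21, beside 0% and 4.13% of all genes. In control hearts the sums were 126 to 231 CPM at D10, 15.99 to 79.8 CPM at D15 and 11.6 to 92.8 CPM at D21. The D10 control and EAM sums overlapped. The heart with the most Hdc also had the highest neutrophil sum at D10 and at D21 but not at D15. No neutrophil marker was at 0 in any whole group.

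Markers of other cells moved in the same hearts. At D15, 8 of 8 macrophage markers were called higher (sums of 501 to 572 CPM in control and 3165 to 4467 CPM in EAM hearts), as were 6 of 6 T cell markers (1.88 to 3.25 and 36.8 to 56.9 CPM) and 3 of 5 dendritic cell markers (25.9 to 31.9 and 91.4 to 183 CPM). Over all genes 18.1% were called higher at D15 and 12.9% lower. Of the 5 cardiomyocyte markers 3 were called lower at D15 (20187 to 23929 CPM in control and 5344 to 14486 CPM in EAM hearts). At D21 the calls were 5 of 8 macrophage, 6 of 6 T cell and 3 of 5 dendritic cell markers higher and 0 of 5 cardiomyocyte markers. Over all genes 4.13% were called higher and 1.16% lower at D21. Without D21 control replicate 1, 2 or 3, 0 of all genes were called higher, so none of these marker calls was kept. At D10 none of these lists had a call. None of these markers was at 0 in a whole group. In other lists at D15, 2 of 2 eosinophil markers tested were called higher, with few control reads. All 5 eosinophil markers summed to 0.295 to 0.570 CPM in D15 control and 4.78 to 11.2 CPM in D15 EAM hearts. Col1a1 alone of 5 fibroblast markers was called higher, and Kdr alone of 5 endothelial markers lower. D10 EAM replicate 1, the D10 heart with the most Hdc, also had the highest macrophage sum (2884 CPM) and the lowest cardiomyocyte sum (13494 CPM) of the 4 D10 EAM hearts. D15 EAM replicate 3, the D15 heart with the most Hdc, had the lowest macrophage sum and the highest cardiomyocyte sum of its group. D21 EAM replicate 4 had the lowest cardiomyocyte sum of its group but not the highest macrophage sum.

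The basophil proteases Mcpt8 and Prss34 had 88 and 76 reads over the 4 D15 EAM hearts and 7 and 6 over the 4 D15 control hearts, and 30 and 35 against 3 and 5 at D21. They were too few for the test. D15 EAM replicate 3, the heart with the most Hdc, had 8 reads of Mcpt8 and 0 of Prss34, the fewest of the 4 D15 EAM hearts. The 5 basophil markers that are not among the 8 genes (Mcpt8, Prss34, Cd200r3, Gata2 and Il4) summed to 14.1 to 21.3 CPM in D15 EAM and 21.3 to 25.1 CPM in D15 control hearts, most of it Gata2, which other cells also use, so the sum says little of basophils. The part of neutrophils, basophils and the other cell types in the Hdc values was not tested.

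Set against the 4 proteases of the same heart, Hdc reads were 0.906 times the protease reads in D15 control and 10.8 times in D15 EAM hearts (geometric means), an 11.96-fold difference. This ratio was chosen after its values were seen, and at D15 it largely repeats the 12.1-fold difference of Hdc itself. The tests of it are therefore a description. At D21 the ratio was 0.798 and 4.22, a 5.28-fold difference, and at D10 it was 1.70 and 2.93. The exact permutation test gave p = 0.0286 at D15 and D21 (adjusted p = 0.0686) and 0.343 at D10 (adjusted p = 0.374). With the D21 hearts taken as pairs, the exact test within pairs gave p = 0.125, the smallest possible. Without D10 EAM replicate 1, where the ratio was 11.4, the log2 difference at D10 went from 0.79 to 0.13.

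Kit, the stem cell factor receptor on which mast cells depend, differed less than Hdc. At D15 the control hearts were at 14.2, 10.9, 14.5 and 16.9 CPM and the EAM hearts at 19.3, 20.5, 17.6 and 21.6 CPM. The groups did not overlap, and the log2 fold change of 0.52 ± 0.13 (adjusted p = 0.00489, edgeR's quasi-likelihood test) was under 2-fold and not called. With no fold limit, 33.2% of all genes were called higher at D15, so such a difference was common that day. At D10 the value was -0.06 ± 0.15 and at D21 -0.22 ± 0.19, with 95% intervals of -0.39 to 0.27 and -0.66 to 0.22 that exclude a 2-fold change either way. The effect at D21 minus that at D15 was -0.73 ± 0.23 (adjusted p = 0.0230), which missed the limit. Kit reads over protease reads were 0.659, 1.45 and 1.47 times the control at D10, D15 and D21 (adjusted exact permutation p = 0.0686, 0.0980 and 0.214).

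The 2 IgE receptor chains stayed near the counting floor. Ms4a2 had 8, 9 and 11 reads over the 4 control hearts of D10, D15 and D21 and 6, 23 and 11 over the 4 EAM hearts. Fcer1a had 6, 5 and 6 reads over the control hearts and 12, 20 and 7 over the EAM hearts. At D15 Ms4a2 had 7, 7, 3 and 6 reads in the EAM hearts and 3, 3, 0 and 3 in the control hearts, which met at 3 reads. Fcer1a had 8, 8, 3 and 1 reads in the D15 EAM hearts and 0, 2, 2 and 1 in the control hearts, which overlapped. Exact permutation tests of log2(CPM + 1) gave p = 0.114 for Ms4a2 and 0.171 for Fcer1a at D15, with adjusted p-values of 0.457 for both, and 0.229 to 0.857 at the other days (adjusted 0.457 to 0.857 over the 6 tests). A difference in these chains was not detectable at this depth.

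In control hearts the 6 testable genes were compared between days in the fit of all 24 hearts. From D10 to D15, 0 were called either way, against 0.00613% of 16318 genes higher and 0.0858% lower. From D10 to D21, 0 were called, against 0.123% higher and 0.0919% lower, and from D15 to D21, 0 were called, against 0% and 0%. An unadjusted p under 0.05 was reached by Mcpt4 from D10 to D15 (log2 fold change 0.62) and by Mcpt4 (0.66) and Kit (0.48) from D10 to D21, and by Kit (0.36) from D15 to D21. The 6 other settings tried also called 0. The atrial markers moved between the same control groups, from sums of 209 to 507 CPM at D10 to 240 to 2487 CPM at D15 and 1770 to 2789 CPM at D21, with median log2 fold changes from D10 of 2.31 and 2.68 and 1 of 5 (Bmp10) called higher each time. The epicardial markers summed to 8.39 to 12.4, 14.5 to 49.7 and 22.7 to 28.1 CPM, with medians of 3.87 and 3.37 and 0 of 4 called. The part of these tissues in the Mcpt4 and Kit values was not tested. In the other direction, Hdc had log2 fold changes from D10 of -0.61 at D15 and -0.64 at D21, not called. The neutrophil markers had medians of -1.74 and -1.56, with 0 of 8 called each time. Over all genes 1091, 1991 and 387 had an unadjusted p under 0.05 in these 3 comparisons.

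The other genes of mast cell biology were taken from 7 lists of proteases, granule contents, IgE receptor and Kit signalling, other receptors, transcription factors, growth factors with cytokines, and lipid mediator enzymes. Without the 8 genes they held 58 genes. The lists were chosen with earlier results of these data known, so the shares below are a description. At D15, 44 were tested, of which 22 were called higher and 3 lower, beside 18.1% higher and 12.9% lower over all genes, with a median log2 fold change of 1.16 against 0.02 for all genes. At D21, 42 were tested with 11 higher and 0 lower, beside 4.13% and 1.16%, and a median of 0.53 against -0.01, and at D10, 41 with 0 called and a median of 0.34. Of the genes called higher, 5 at D15 (Gzmb, Lat, Hrh2, Adora3 and Il13) and 2 at D21 (Gzmb and Lat) would not have passed the filter on the reads of the control hearts and needed the EAM hearts to pass, so their calls follow in part from the filter. The other genes called higher were 17 at D15 and 9 at D21. The D21 count was 0 without any 1 of the 4 D21 control hearts or D21 EAM replicate 1. Omitting EAM replicate 2 left 1, omitting replicate 3 left 17 and omitting replicate 4 left 6, and limma-voom gave 1. Over all genes the 630 called higher at D21 likewise went to 0, 0, 0 and 4 without each control heart and to 11, 42, 1565 and 393 without each EAM heart. At D10, 10 were called higher when all 12 control hearts served as controls, beside 4.06% of all genes. Most of these genes are not restricted to mast cells, and the leukocyte gene Ptprc, which encodes CD45, rose alongside, by 15.8-fold at D15 (adjusted p = 1.4e-08, edgeR's quasi-likelihood test).

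Of the proteases that were not among the 8, Mcpt1, Mcpt2, Mcpt9 and Cma2, which mark mucosal mast cells or lie in the same cluster, had 0 to 3 reads over the 4 hearts of each group. Cathepsin G (Ctsg), shared with neutrophils, had 3 reads over the D15 control and 275 over the D15 EAM hearts, of which 159 came from 1 heart, and was under the filter. Gzmb, the cytotoxic protease granzyme B, had 4 to 8 reads in the D15 control hearts and 198 to 331 in the D15 EAM hearts, and 3 to 9 and 11 to 179 at D21.

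Among granule genes, Srgn, the serglycin core on which granule proteases are packed, rose by 2.79 on the log2 scale at D15, and Ndst2, the heparin-sulfating enzyme of mast cells, by 1.35. Hnmt, which inactivates histamine by methylation, had a log2 fold change of -1.49 and was called lower. Slc18a2, the vesicular transporter that loads histamine, was at 4.12 ± 0.412 CPM in D15 control and 3.01 ± 0.381 CPM in D15 EAM hearts, and at 4.55 ± 0.558 and 2.90 ± 0.523 CPM at D21 (n = 4 each), and was not called.

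The signalling genes of the IgE receptor and of Kit gave 7 of 12 tested genes called higher and 1 lower at D15, counting Kit itself among the 12, beside 18.1% and 12.9% of all genes. The gamma chain Fcer1g, used also by other Fc receptors, rose by 3.30 on the log2 scale, the kinases Lyn by 2.02, Syk by 2.26 and Btk by 3.89, the adaptors Lat (few control reads) by 4.34 and Lat2 by 3.79, and the phospholipase Plcg2 by 2.34. Of these 7, 6 were also called higher at D21, beside 4.13% of all genes, the exception being Lyn (log2 fold change 1.08, adjusted p = 0.0254). These D21 calls are part of the wider count that fell to 0 without 1 of several hearts, as given above. Kitl, the ligand of Kit, had a log2 fold change of -1.09 at D15 and was called lower. Gab2, Fyn and Plcg1, which act beside Lyn and Syk, had values of 0.59, -0.40 and -0.64 and were not called.

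Of other receptors, Hrh2 (histamine H2 receptor, few control reads), Cysltr1 (cysteinyl leukotriene receptor) and Cd63 (a granule membrane protein) rose at D15, by 3.23, 1.97 and 1.48 on the log2 scale. Adora3 (adenosine A3 receptor) had 3 to 8 reads in the D15 control and 101 to 212 in the D15 EAM hearts. Il1rl1, the receptor of interleukin-33, was at 0.42 and Hrh1 at 0.07, not called. Mrgprb2, which marks connective tissue mast cells, had 1 to 6 reads over the 4 hearts of each group, too few to test.

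Of the transcription factors, the myeloid factors Spi1 (3.82) and Cebpa (2.27) were called higher at D15. Gata2 (-0.62), Mitf (-0.36), Tal1 (-0.41) and Stat5b (-0.48), which mast cells also use, were not called. Of growth factors and cytokines, Il33 rose by 3.48 and Tgfb1 by 1.47 on the log2 scale, and Il13 had 62 reads over the D15 EAM hearts and 0 over the D15 control hearts. Il9 had 0 reads throughout, and Il3, a growth factor of mast cells and basophils, had 32 reads in D15 EAM and 0 in D15 control hearts.

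Of lipid mediator genes, Alox5ap (3.39), Ptgs2 (3.75) and Pla2g4a (2.17) were called higher at D15 and the prostaglandin D synthase of non-haematopoietic cells, Ptgds (-1.37), lower. Hpgds, the prostaglandin D synthase of mast cells, was at 0.93 (adjusted p = 0.00641), under 2-fold, and Alox5 (-0.13) and Ltc4s (0.68) were not called. The Ltc4s value rests on 1 heart, since the D15 EAM hearts averaged 4.01 CPM with it and 2.15 CPM without it, against 2.59 CPM in control hearts.

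**Figure D5:**
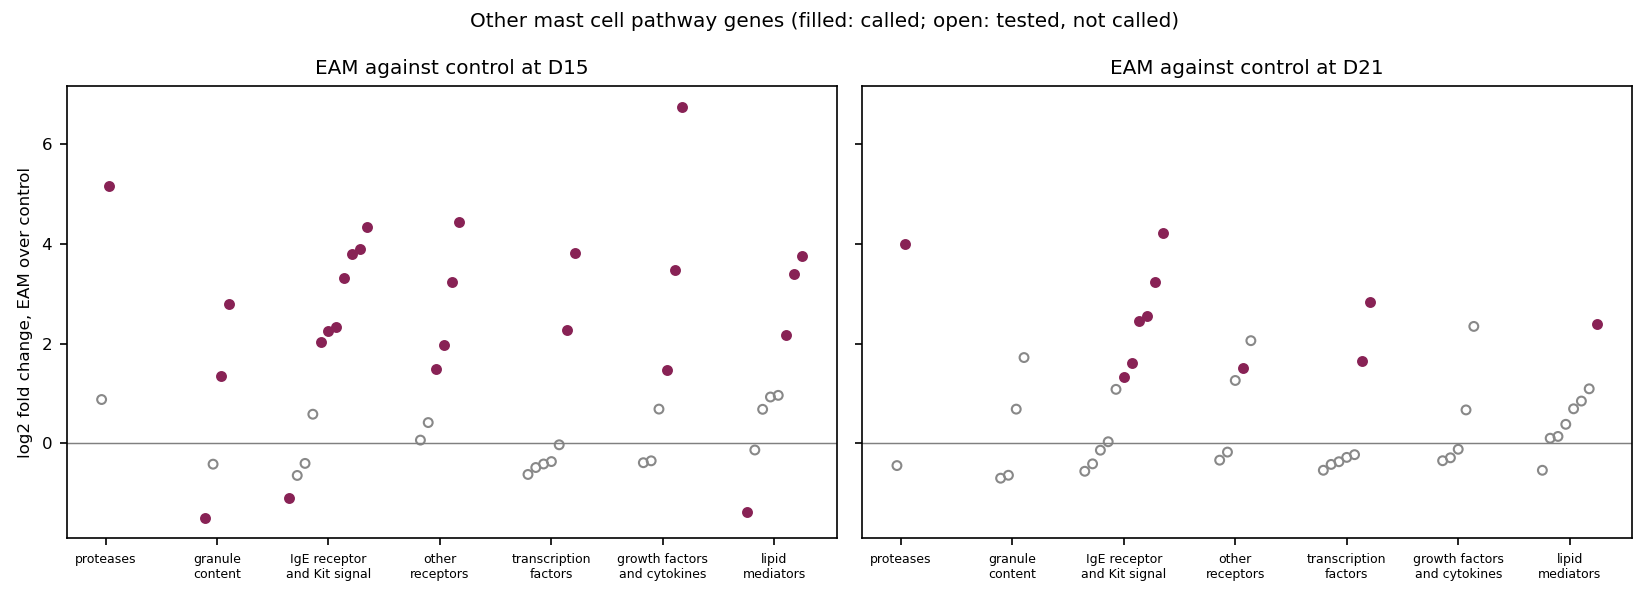
Log2 fold change of EAM over control (y axis) of the other mast cell pathway genes at D15 (left) and D21 (right), by list (x axis), 1 point per gene tested with n = 4 hearts per group, each gene drawn once; filled points were called and open points were not. The highest D15 point is Il13, whose control hearts had 0 reads, so its height depends on the prior count of the fit. At D15, 22 of 44 were called higher and 3 lower, and at D21, 11 of 42 higher.

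The genes whose levels over hearts were most like those of the proteases were sought among 14209 genes whose mean reached 1 CPM. The measure was Pearson's r over 24 hearts between a gene and the mean of the 4 proteases, as log2(CPM + 1) after the 6 group means were taken off, given as a description. The 10 highest were Mblac1 (r = 0.74), Lmo1 (0.74), R74862 (0.73), Chmp3 (0.71), Zfp286 (0.70), Gm17018 (0.68), Rcbtb2 (0.68), Sdf2 (0.67), Tnfsf12 (0.66) and Gm9843 (0.66). Tpsab1 reached 0.37, Kit -0.23 and Hdc -0.04. Among the proteases themselves r lay between -0.03 (Mcpt4 with Tpsb2) and 0.59 (Cma1 with Tpsb2). With the group means kept, 0 of these 10 genes remained among the 10 most alike.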

How the data were processed

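RNA was extracted from a frozen portion of each of 24 hearts and sequenced as directional libraries. The authors aligned reads with HISAT2 2.0.4 to GRCm38, removed duplicates with Picard and counted reads per Ensembl gene with featureCounts, and the deposited values are these raw counts. The strand setting of the counting was not given in the sources used here. Samples were grouped by day and treatment from the labels, and 0 columns belonged to no sample. Each heart came from a separate mouse, and p-values measure the spread between these mice.

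Totals of 15814863 to 24980864 reads give a floor of 3 counts of 0.120 to 0.190 CPM, for counting error only. Levels are CPM with TMM factors over all 24 libraries. Genes that reached 10 reads in 4 or more hearts were tested with edgeR 4.0.16 (TMM, quasi-likelihood) under R 4.3.3, and the standard error was taken from the F statistic, with its 95% interval. Calls needed an adjusted p under 0.01 and 2-fold. Changes between days came from 1 fit of all 24 hearts. Alternatives used DESeq2 1.42.0, limma 3.58.1, other scalings, filters and limits, other sets of hearts and a replicate block. Genes short of the filter were tested by exact permutation (scipy 1.17.1) of log2(CPM + 1). The scripts were tested on simulated data.

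Replicate numbers were checked for pairing by correlating the deviations of same-numbered hearts from their group means. At D21 all 4 values were above 0.1 (0.107 to 0.316), at D10 they ran from -0.10 to 0.43 and at D15 from -0.11 to 0.04. Only the D21 numbers were therefore treated as possible pairs in exact tests. The D21 values are low, and D10 replicates 1 and 4 had higher ones (0.383 and 0.430). The labels do not say that the numbers mark pairs, so pairing at D21 is not established.

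Named genes are the 8 genes, the genes of the wider lists called in any comparison, Ptprc, the 10 genes most like the proteases and, as values, any gene a result turns on. Under the last come the markers of other cells and of heart tissues, which were listed as whole sets, and uncalled genes of the wider lists, which were named after their values were seen. The 8 genes and all lists were chosen with earlier results of these data known, and the ratios after their values were seen. Gene models are from GENCODE M21 (GRCm38) and promoters from RefSeq (GRCm38.p6).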

Additional observations from a re-analysis of the deposited data

Results flagged for a closer look

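In 48 sets of 4 hearts, 1 for each gene and group, 3 held a heart far from the others, and chance gives about 1 in 20 such sets. Hdc in D10 EAM replicate 1 was at 70.5 CPM with the next heart at 16.9 CPM, a gap of 0.920 of the range, and the neutrophil markers of that heart summed to 814 CPM. Kit in D21 control replicate 2 was at 14.5 CPM with the nearest other heart at 19.0 CPM, a gap of 0.854 of the range. Ms4a2 in D15 control replicate 3 had 0 reads and so 0 CPM, a gap of 0.882 of the range, where the other 3 hearts had 3 reads each.

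The EAM effect on Mcpt4 differed between days by -1.02 on the log2 scale from D10 to D15 and by -1.08 from D15 to D21, each by a test of the difference in the fit of all 24 hearts. The first call was kept in 1 of 5 other settings and in 6 of 16 fits without 1 heart, the second in 3 of 5 and in 4 of 16.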

How the results depend on the processing

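Of 846 values of the 6 testable genes under other settings and without 1 heart, 785 kept their direction and their side of the limits, 15 turned direction, 34 lost a call and 12 gained one. All 34 lost calls were calls of Mcpt4, while the Hdc call at D15 was always kept. The cause was not tested. With all 12 control hearts, 1 of the genes was called higher at D10 (Hdc, 2.18, beside 4.06% of all genes), Mcpt4 at D10 turned to -0.17 and Kit at D21 to 0.0583. Under total counts Kit at D10 turned to 0.0028. With no fold limit, 2 were called higher and 1 lower at D15, beside 33.2% and 31.1% of all genes. At D21, 1 was called higher (Hdc) under the likelihood ratio test, DESeq2, the fit on all 24 samples, all 12 control hearts and an adjusted p under 0.05, settings that called 8.88% to 10.1% of all genes higher. For the change from D10 to D15, the replicate block gave 1 higher (Hdc, beside 7.89% of all genes) and 0 lower, and RLE, total counts and no filter gave 0 lower. For the change from D15 to D21, no filter and the replicate block gave 0 lower. The block changed no call of EAM against control at D21. Leaving out 1 heart in turn gave 0 to 1 higher and 0 to 1 lower at D21, 0 to 1 higher and 0 to 1 lower for the change from D10 to D15, and 0 to 2 lower for the change from D15 to D21. Leaving out 1 heart also turned values near 0: Kit at D10 (-0.148 to 0.0197), Cpa3 at D15 (-0.0415 to 0.289), the Tpsab1 ratio at D10 (-0.0752 to 0.451), Ms4a2 at D21 (-0.0118 to 0.0711), Fcer1a at D21 (-0.0491 to 0.0667), and in control hearts Tpsb2 from D10 to D15 (-0.109 to 0.212) and Cma1 (-0.0879 to 0.299), Mcpt4 (-0.0685 to 0.132) and Hdc (-0.155 to 0.0859) from D15 to D21. Total counts moved the median of all genes by 0.150 at D15. Depth limits the proteases to 8 to 61 reads per heart and leaves the IgE receptor chains untestable across genes.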
